A study of Rattus norvegicus with 6 samples.

Results

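The genes of the molybdenum enzymes and of molybdenum cofactor synthesis were described in adipose-derived stem cells (ADSCs) of the rat, which are precursors of fat cells, with and without adipogenic induction. The 9 genes, of 18166 measured by a feature with a single gene symbol, were Mtarc1, Mtarc2, Aox1, Xdh, Suox, Mocs1, Mocs2, Mocos and Gphn, and each was read by 1 feature. Mtarc1 and Aox1 were selected on their higher signal in induced than in control arrays, so their difference between the groups is given as a description with no test. The other 7 were taken for their function. The induced group was 3 cultures kept for 7 days in medium with 0.5 mM 3-isobutyl-1-methylxanthine (a phosphodiesterase inhibitor), 1 µM dexamethasone (a glucocorticoid), 5 µg/ml insulin and 20% fetal bovine serum. The control group was 3 cultures in 10% serum without these agents, whose time in culture no source used here gives. The concentration of serum differed together with the inducers, so the effects of serum and inducers cannot be told apart. The cells of all groups were taken from the inguinal fat pads of female Wistar rats aged 2 weeks, and the labels call the 6 cultures biological replicates without saying whether they came from separate animals, so the p-values measure the spread between these cultures. RNA was read on one-colour Affymetrix arrays, and values are log2 RMA signals.

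Molybdenum works in animal enzymes only when it is held by an organic pterin, the molybdenum cofactor. MOCS1 turns GTP into the first pterin intermediate, MOCS2 encodes both subunits of the synthase that adds sulphur to it, and gephyrin (GPHN) inserts the metal. Sulphite oxidase and the mARC proteins use the cofactor in that form, whereas aldehyde oxidase and xanthine dehydrogenase need a further sulphur atom that MOCOS places on it. The enzymes act on unlike substrates: the mARC proteins of the outer mitochondrial membrane reduce N-hydroxylated compounds, AOX1 oxidises aldehydes and nitrogen heterocycles, XDH makes urate from hypoxanthine, and SUOX turns sulphite into sulphate. In mouse fat cells the mARC system and cytochrome b5 type B have been tied to lipid synthesis, and in mice Xdh has been tied to adipogenesis.

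The arrays of a group were not equally alike. Induced replicates 1 and 2 correlated at r = 0.9894 across features, and induced replicate 3 at 0.9681 and 0.9687 with them. Markers of mature fat cells were higher in induced cultures. Of their differences 15 of 15 were positive, against 47.6% of all genes, and 6 of 15 passed the test used below as higher, against 0.479%. The mean of these markers was 10.56, 10.52 and 11.56 on induced replicates 1 to 3, against 8.33, 6.97 and 6.81 on control replicates 1 to 3. Induced replicate 3 thus read highest in these markers, and control replicate 1 stood above the other control arrays. Induced replicate 3 also stood apart in other genes. Of 9 hepatocyte markers 2 had a positive difference, as did 47.6% of all genes. Among them Alb read 6.21, 6.09 and 11.27 on induced replicates 1 to 3. Stromal precursor markers, the type named in the labels, averaged 9.79, 9.86 and 8.70 on the induced arrays and 10.24, 10.04 and 10.03 on the control arrays. Of 13 such markers 2 had a positive difference (Ly6al and Vcam1), and 0 of 13 passed, where 0.270% of all genes passed as lower. For 6 of the 13 all induced arrays lay below all control arrays, as for 13.4% of all genes. Thy1 and Col1a1 read above 11 on all 6 arrays, and Ly6al between 2.71 and 2.95. Cd34 read between 4.09 and 4.69 in induced cells and between 4.94 and 7.03 in control cells. Pdgfra read 11.99, 11.95 and 9.05 on induced replicates 1 to 3. In such bulk samples a larger share of fat cells and more RNA per fat cell cannot be told apart.

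All 9 genes had higher means in induced cells, and for each of them all 3 induced arrays lay above all 3 control arrays, which was so for 12.0% of all genes. For Mtarc1 and Aox1 the choice of members fixed this. For the 7 genes taken by function the count was 7 of 7, with a median difference of 0.99 on the log2 scale against -0.01 over all genes, and 3 of the 7 were at least 2-fold higher, as were 2.81% of all genes. None of the 7 passed limma's moderated test at an adjusted p under 0.05 over all genes (0 of 7, adjusted p = 0.116 to 0.262), while 0.479% of all genes passed as higher in induced cells. At an unadjusted p under 0.05, 7 of the 7 were higher, as were 8.13% of all genes. The 9 genes were grouped with results of this comparison known, so these counts describe them and are not independent evidence.

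**Figure D1:**
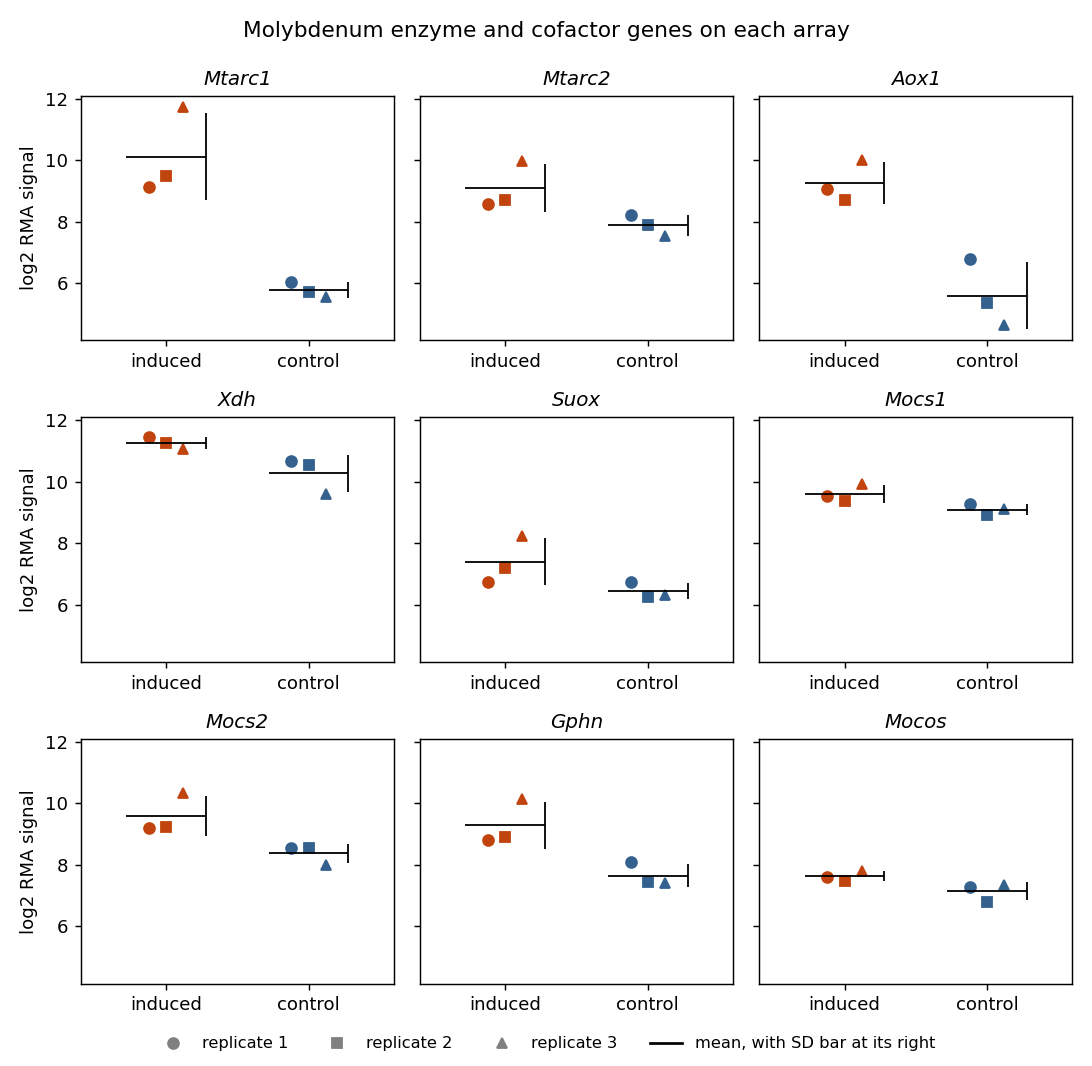
Log2 RMA signal (y axis) of the 9 genes on the 3 induced arrays (left, orange) and the 3 control arrays (right, blue), 1 symbol per replicate number; the horizontal line is the group mean and the bar at its right is ± 1 SD. Induced arrays lie above control arrays in every panel, by 3.08 at the nearest for Mtarc1 and by 0.01 for Suox.

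Mtarc1 encodes one of the mARC reductases of the outer mitochondrial membrane. It read 9.13, 9.48 and 11.74 on induced replicates 1 to 3, against 6.05, 5.72 and 5.56 on control replicates 1 to 3. Every induced array was above the control arrays by at least 3.08, and induced replicate 3 was far above the other induced arrays. The means were 10.12 ± 1.41 in induced cells and 5.78 ± 0.25 in control cells (SD, n = 3 each), a difference of 4.34 on the log2 scale or 20.2-fold. Only 0.055% of genes had a larger difference, which placed Mtarc1 at rank 11. Without induced replicate 3 the difference was 3.53. The spread of its induced arrays was also wide, since 0.699% of genes had a larger SD in the induced group. In control arrays 23.8% of genes had a larger SD.

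Mtarc2 encodes the other mARC reductase. It read 8.56, 8.71 and 9.98 on induced replicates 1 to 3, against 8.22, 7.88 and 7.54 on control replicates 1 to 3. The groups did not overlap, but the lowest induced array was only 0.34 above the highest control array. The means were 9.08 ± 0.78 in induced cells and 7.88 ± 0.34 in control cells (SD, n = 3 each), and the difference of 1.20 (SE 0.39, 95% interval 0.27 to 2.14) did not pass the test (adjusted p = 0.198). It was 0.75 without induced replicate 3 (adjusted p = 0.115). In the RefSeq gene table of the rat assembly GRCr8, Mtarc1 and Mtarc2 stand next to each other on chromosome 13 and on the same strand. Whether probes for one also bind RNA of the other was not tested; their features differed by 4.34 and 1.20 between the groups.

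The 250 bases before the RefSeq start of 3 of the genes are shown because Mtarc1 and Aox1 had the largest differences of the 9 and Mtarc2 is the neighbouring relative of Mtarc1 with a smaller one. They are from GRCr8, 5′ to 3′ on the gene's strand, and lie at chr13:98894054-98894303 on the minus strand for Mtarc1, chr13:98928755-98929004 on the minus strand for Mtarc2 and chr9:67073641-67073890 on the plus strand for Aox1. Capitals mark matches, on either strand, to the motifs searched.
Mtarc1: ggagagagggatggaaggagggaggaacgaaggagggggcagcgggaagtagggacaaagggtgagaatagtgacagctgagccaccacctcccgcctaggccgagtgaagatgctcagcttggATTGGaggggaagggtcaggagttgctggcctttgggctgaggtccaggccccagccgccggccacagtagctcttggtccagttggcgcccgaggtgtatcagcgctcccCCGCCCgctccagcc
Mtarc2: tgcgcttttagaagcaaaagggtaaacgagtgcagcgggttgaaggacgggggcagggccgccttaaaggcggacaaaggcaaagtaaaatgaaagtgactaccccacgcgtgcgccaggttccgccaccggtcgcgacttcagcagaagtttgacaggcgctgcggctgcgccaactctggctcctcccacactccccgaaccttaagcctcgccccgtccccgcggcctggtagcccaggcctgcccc
Aox1: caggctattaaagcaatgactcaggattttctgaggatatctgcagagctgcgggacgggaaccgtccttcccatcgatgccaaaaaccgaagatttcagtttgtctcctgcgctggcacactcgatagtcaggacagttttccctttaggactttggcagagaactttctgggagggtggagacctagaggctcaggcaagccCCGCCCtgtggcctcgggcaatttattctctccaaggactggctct
The search covered the direct repeat bound by PPARG with RXR (a pair of AGGTCA copies in the same direction with 1 base between them), its half-site AGGTCA, the C/EBP motif TTGCNNAA, the glucocorticoid response element (AGAACA, any 3 bases, then TGTTCT), the antioxidant response element TGACNNNGC, the TATA box TATAAA, the CCAAT box and the GC box GGGCGG. The half-site is part of the direct repeat, so a match to the repeat is also one to the half-site. Mtarc1 had a CCAAT box whose match begins 126 bases before the start and a GC box 15 bases before it, both on the opposite strand. Aox1 had a GC box 46 bases before its start, also on the opposite strand, and Mtarc2 had no match to any of the 8 motifs. Over all 33469 windows of this length in the RefSeq table, 30.5% held a GC box and 34% a CCAAT box. Of the 9 genes, 5 held a GC box (Mtarc1, Aox1, Mocs1, Mocs2 and Gphn) and 3 a CCAAT box (Mtarc1, Mocs1 and Xdh). The C/EBP motif was present in Xdh and Mocos and in 9.22% of all windows, the half-site in Mocos and in 14.1%, and the antioxidant element in Mocs2 and in 10.1%. The direct repeat, the glucocorticoid element and the TATA box matched 0 of the 9 windows, against 0.0508%, 0.012% and 12.9% of all windows. A match or its absence in these windows describes the letters only. The Mtarc1 and Mtarc2 windows were rich in G and C, at 64.4% and 62.8%, and the Aox1 window was at 52.8%, where the median window was at 51.2%.

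Aox1 encodes aldehyde oxidase, whose substrates include retinaldehyde. It read 9.06, 8.72 and 10.02 on induced replicates 1 to 3, against 6.77, 5.36 and 4.64 on control replicates 1 to 3. Induced arrays were above all control arrays by at least 1.94, and control replicate 1 was well above the other control arrays. The means were 9.26 ± 0.67 in induced cells and 5.59 ± 1.09 in control cells (SD, n = 3 each), a difference of 3.67 or 12.8-fold, larger than for all but 0.149% of genes. The control values of Aox1 and Mtarc1 lay near or below the array medians of 5.64 to 5.73 apart from control replicate 1, and without a detection call they are not shown to be above background. The difference of Aox1 was 3.30 without induced replicate 3 and 4.27 without control replicate 1. The spread lay on the other side than for Mtarc1: 0.65% of genes had a larger SD in control arrays and 6.25% in induced arrays.

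The arrays that stood apart were set beside the fat cell genes. Control replicate 1 exceeded the mean of control replicates 2 and 3 by 1.78 for Aox1 and by 0.41 for Mtarc1, where the excess was 1.44 for the mean of the 15 fat cell markers, 1.89 for Pparg, 2.74 for Adipoq and 1.74 for Plin1. Pparg is the master regulator of fat cell formation, Adipoq encodes adiponectin and Plin1 a lipid droplet coat protein. Over the 15 markers this excess ran from 0.27 to 2.85, and it was larger than that of Aox1 for 4 of them and larger than that of Mtarc1 for 13. Induced replicate 3 exceeded the mean of induced replicates 1 and 2 by 2.43 for Mtarc1 and by 1.13 for Aox1, where the excess was 1.02 for the marker mean and 1.35 for Pparg. Over the 15 markers that excess ran from -0.53 to 2.01, so 0 of them exceeded Mtarc1 and 6 exceeded Aox1. The part of fat cell content in the differences of the 9 genes was not tested.

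Genes with the most similar profiles were found by the Euclidean distance between log2 values centred on each gene's mean over the 6 arrays, among 18065 other genes with a symbol that is no placeholder. The nearest to Aox1 was Pparg, at a distance of 0.243. Pparg read 10.26, 9.99 and 11.48 on induced replicates 1 to 3, against 8.17, 6.55 and 6.00 on control replicates 1 to 3. As for Aox1, induced replicate 3 and control replicate 1 were each the highest of their group. Next came the sterol transporter Abcg1 at 0.383, pyruvate carboxylase Pc at 0.463, the phenol sulphotransferase Sult1a1 at 0.705 and Abhd1 at 0.709. For Mtarc1 the nearest were the glycogen synthase Gys2 at 0.805, the lipid droplet gene Cidec at 0.888, the thyrotropin receptor Tshr at 0.945, and the features annotated as Mir126a and Mir126b at 0.968 and 1.026. Gys2 read 8.29, 8.41 and 10.51 on induced replicates 1 to 3, against 5.81, 5.08 and 5.01 on control replicates 1 to 3. No gene therefore lay as near to Mtarc1 as all 5 of those named lay to Aox1. The values were centred but not scaled, and Mtarc1 had the larger difference, so the distances of Mtarc1 and Aox1 are not on an equal footing. The distances describe 6 arrays of 2 unlike groups, so all genes with a large difference are alike by this measure in part through that difference.

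**Figure D2:**
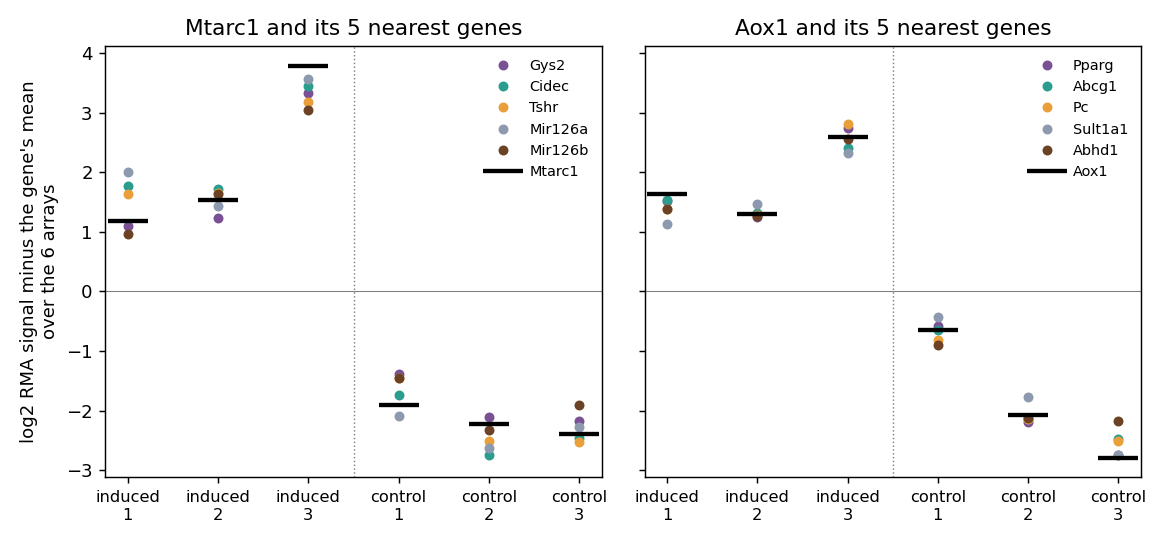
Log2 RMA signal minus each gene's mean over the 6 arrays (y axis) on the induced and control arrays (x axis), for Mtarc1 (left, black bars) and Aox1 (right, black bars) with the 5 genes nearest to each (coloured points). Pparg at 0.243 from Aox1 is hard to tell from it, while the genes round Mtarc1 start at 0.805 and lie below it on induced replicate 3.

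Xdh encodes xanthine dehydrogenase, which needs the sulphurated cofactor as aldehyde oxidase does. It read 11.46, 11.26 and 11.06 on induced replicates 1 to 3, against 10.67, 10.55 and 9.59 on control replicates 1 to 3. The groups did not overlap, and Xdh was the 1 gene of the 9 that was not highest on induced replicate 3. The means were 11.26 ± 0.20 in induced cells and 10.27 ± 0.59 in control cells (SD, n = 3 each), a difference of 0.99 (SE 0.29, 95% interval 0.29 to 1.69, adjusted p = 0.17). Without control replicate 3 it was 0.65 (adjusted p = 0.224). In each group Xdh was lowest on replicate 3, and so was the mean of 15 macrophage and leukocyte markers, at 7.73, 7.24 and 5.74 on induced replicates 1 to 3 and 6.70, 7.06 and 5.47 on control replicates 1 to 3. Of these markers 11 of 15 had a positive difference, as did 47.6% of all genes. None passed (0 of 15), where 0.479% of all genes passed as higher. Within their group, 14 of 15 were lowest on induced replicate 3 and 13 of 15 on control replicate 3, and 12 of 15 were lowest on both, as were 15.7% of all genes. Cd68 went the other way in the induced group only: it read highest on induced replicate 3 but lowest on control replicate 3. C1qa and Cd74 were lowest on control replicate 2 among the control arrays. The mean of the 13 stromal precursor markers was also lowest on replicate 3 of each group. It stood at 8.70 on induced replicate 3 and 10.03 on control replicate 3, with 10.04 on control replicate 2. The part of these cells or of the macrophages and leukocytes in the Xdh signal was not tested. Without both replicate 3 arrays, a setting chosen after seeing the data, Xdh differed by 0.75 (adjusted p = 0.0405), and 740 genes passed in place of 136.

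Suox encodes sulphite oxidase of the mitochondrial intermembrane space. It read 6.76, 7.21 and 8.24 on induced replicates 1 to 3, against 6.75, 6.26 and 6.33 on control replicates 1 to 3. Induced replicate 1 and control replicate 1 were almost level, 0.01 apart, so the groups were barely separate. The difference of 0.95 (SE 0.37, 95% interval 0.06 to 1.84) did not pass (adjusted p = 0.262), and it was 0.53 without induced replicate 3 (adjusted p = 0.238).

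The cofactor genes were read next, in the order of their steps. Mocs1, for the first step from GTP, read 9.53, 9.37 and 9.94 on induced replicates 1 to 3, against 9.29, 8.90 and 9.10 on control replicates 1 to 3, a difference of 0.52 (SE 0.18, adjusted p = 0.23). Mocs2, for molybdopterin synthase, read 9.21, 9.24 and 10.32 on induced replicates 1 to 3, against 8.55, 8.56 and 8.01 on control replicates 1 to 3, a difference of 1.22 (SE 0.33, adjusted p = 0.148). Gphn, for gephyrin, read 8.80, 8.91 and 10.15 on induced replicates 1 to 3, against 8.08, 7.45 and 7.40 on control replicates 1 to 3, a difference of 1.64 (SE 0.39, adjusted p = 0.116). Gphn had the largest difference of the 7 genes taken by function, and 1.21% of all genes had a larger one. Mocos, for the sulphurase that serves Aox1 and Xdh, read 7.62, 7.48 and 7.82 on induced replicates 1 to 3, against 7.29, 6.81 and 7.35 on control replicates 1 to 3. Its difference of 0.49 (SE 0.18, adjusted p = 0.238) was the smallest of the 9, and without control replicate 2 it was 0.32 (adjusted p = 0.487). For all these cofactor genes the groups did not overlap, with gaps between 0.08 for Mocs1 and 0.71 for Gphn. Without induced replicate 3 the differences were 0.35 for Mocs1, 0.85 for Mocs2 (adjusted p = 0.0736), 1.20 for Gphn and 0.40 for Mocos, and Gphn then passed (adjusted p = 0.0425).

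Ordered by their difference, the genes ran from Mtarc1 and Aox1 through Gphn, Mocs2, Mtarc2, Xdh and Suox to Mocs1 and Mocos. The 95% intervals of the 7 genes taken by function all overlapped one another, from 0.71 to 2.56 for Gphn to 0.06 to 0.92 for Mocos, and differences between genes were not tested. Of the 9 genes, 8 were highest on induced replicate 3, as were 26.0% of all genes, and for 7 control replicate 1 was the highest control array, as for 37.1% of all genes. Measured over the 6 arrays as above, Mtarc2 and Mocs2 lay close together at a distance of 0.33, as did Mocs1 and Mocos at 0.31. The values are centred but not scaled, so genes that vary little lie near each other in part for that reason. Mocs1 and Mocos had the smallest differences of the 9. Mocs1 was highest on control replicate 1 among the control arrays, and Mocos on control replicate 3.

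**Figure D3:**
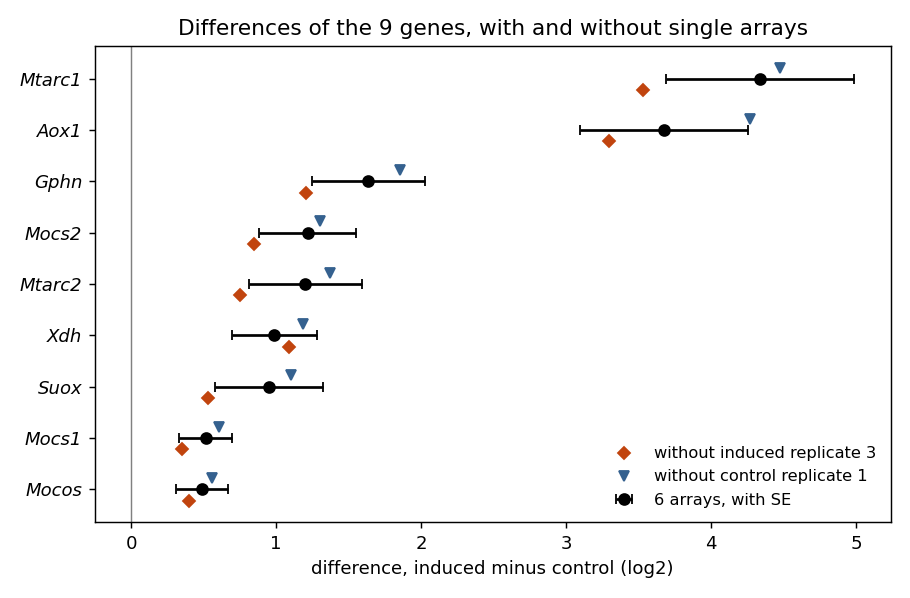
Difference between group means, induced minus control, in log2 units (x axis) for each of the 9 genes (y axis); black points are the fit to 6 arrays with its standard error, orange diamonds leave out induced replicate 3 and blue triangles control replicate 1. All differences stay above 0, and leaving out induced replicate 3 gives a smaller value for every gene but Xdh.

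The genes round these enzymes were taken from 6 lists by function, of which 81 of 101 genes were measured. Over all of them 1 of 81 passed as higher and 0 as lower, against 0.479% and 0.270% of all genes. The median difference of the 81 was 0.08, against -0.01 over all genes. The 1 gene that passed was Tst, a mitochondrial sulphurtransferase that takes sulphur from thiosulphate and releases sulphite. It read 8.86, 8.59 and 9.59 on induced replicates 1 to 3, against 6.41, 6.59 and 6.63 on control replicates 1 to 3. The groups lay far apart, and control replicate 1 was the lowest array. Tst rose by 2.47 (SE 0.26, adjusted p = 0.0189). It no longer passed when induced replicate 1 was left out (adjusted p = 0.103). Nor did it pass without any 1 control array, with adjusted p = 0.0537, 0.0827 and 0.0815 for control replicates 1 to 3. The difference stayed between 2.18 and 2.68 with 1 array left out. With a block on replicate number Tst did not pass either (adjusted p = 0.0653).

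In the list of sulphur amino acid breakdown, to which Tst belongs, 1 of 18 genes passed as higher and 0 as lower. Over all genes these shares were 0.479% and 0.270%, and the list's median difference was -0.03. Induced arrays were all above control arrays for 5 of the 18 and all below for 2, against 12.0% and 13.4% of all genes. Cdo1 and Csad, named after their values were seen, make the precursors of taurine from cysteine, and cysteine breakdown is also the source of the sulphite that SUOX removes. Cdo1 read 11.50, 11.28 and 12.78 on induced replicates 1 to 3, against 10.25, 9.72 and 9.02 on control replicates 1 to 3, a difference of 2.19 (SE 0.47, adjusted p = 0.097). Csad differed by 1.71 (SE 0.44, adjusted p = 0.133). Without induced replicate 3 both passed, at 1.72 for Cdo1 (adjusted p = 0.0488) and 1.19 for Csad (adjusted p = 0.0344). In that setting 557 of all genes passed, in place of 136.

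The mARC proteins take electrons from cytochrome b5 and its reductase. Of 6 genes in this list 0 passed, where 0.479% of all genes passed as higher, and the median difference was -0.02. At an unadjusted p under 0.05, 2 of the 6 were higher, against 8.13% of all genes. Cyb5b, the cytochrome b5 of the outer mitochondrial membrane, read 10.27, 10.38 and 11.45 on induced replicates 1 to 3, against 9.49, 9.65 and 9.16 on control replicates 1 to 3. It was higher on every induced array, by 1.27 between the means (SE 0.33, adjusted p = 0.133). Without induced replicate 3, where 557 genes passed in place of 136, its difference was 0.89 and passed (adjusted p = 0.0456). Cyb5a, of the endoplasmic reticulum, stood at 0.77 (adjusted p = 0.283), and at 0.42 without induced replicate 3, and its groups overlapped. The reductase Cyb5r3, named here for its role, stood at -0.01 (SE 0.14, adjusted p = 0.977) and between -0.14 and 0.09 with 1 array left out.

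In the list of sulphur and iron-sulphur supply 12 of 12 genes had a positive difference, where 47.6% of all genes did. None passed (0 of 12), where 0.479% of all genes passed as higher. The median was 0.50. Induced arrays were all above control arrays for 8 of the 12, against 12.0% of all genes, and 5 were higher at an unadjusted p under 0.05, against 8.13%. Nfs1, the cysteine desulphurase, read 9.22, 9.28 and 10.32 on induced replicates 1 to 3, against 8.57, 8.52 and 8.21 on control replicates 1 to 3, a difference of 1.17 (SE 0.31, adjusted p = 0.136). Isca1, an assembly protein for iron-sulphur clusters, stood at 0.86 (adjusted p = 0.258). The list mean was 8.85, 8.90 and 9.60 on the induced arrays and 8.72, 8.49 and 8.55 on the control arrays, so induced replicate 3 again read highest. Without that array, where 557 genes passed in place of 136, Nfs1 stood at 0.81 and passed (adjusted p = 0.0408). Isca1 stood at 0.46 there. Mocs3, which hands sulphur to MOCS2 and is named here for its role, stood at 0.04 (SE 0.16, adjusted p = 0.938) and between -0.12 and 0.15 with 1 array left out.

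Among other aldehyde-oxidising genes 0 of 18 passed, where 0.479% of all genes passed as higher and 0.270% as lower. Of the differences 10 were positive and 8 negative, where 47.6% of all genes had a positive one, and the median was 0.10. Aldh6a1, of valine breakdown, stood at 1.68 (adjusted p = 0.127) and Aldh1l2, of mitochondrial folate metabolism, at -1.67 (adjusted p = 0.116). Aox2, the other measured aldehyde oxidase and named here for its role, read between 4.80 and 4.91 in induced cells and between 4.66 and 4.96 in control cells, so its groups overlapped fully. In purine breakdown, salvage and urate handling 0 of 19 passed, against 0.479% of all genes as higher and 0.270% as lower. The median was 0.00. At an unadjusted p under 0.05, 4 of the 19 were higher and 2 lower, against 8.13% and 9.51% of all genes. Nt5e, the surface nucleotidase also known as CD73, stood at -1.10 (adjusted p = 0.211) and adenosine kinase Adk at 1.00 (adjusted p = 0.192). Nt5e was at -0.70 without control replicate 2, and Adk at 0.62 without induced replicate 3. Slc2a9, a urate transporter named after its values were seen, stood at 0.89 (adjusted p = 0.142) and, like Xdh, was lowest on the replicate 3 array of each group. Of 8 genes for gephyrin's partners at inhibitory synapses 0 passed, against the same shares of all genes, and the median was 0.02. Nlgn2 stood at -0.80 (adjusted p = 0.096) and Glra1 at -0.36 (adjusted p = 0.606) over 6 arrays, and Glra1 was at -0.05 without control replicate 3. The list mean was 4.61 to 4.87 on induced arrays and 4.76 to 4.97 on control arrays. Nlgn2 and Slc32a1 read above the array medians of 5.64 to 5.73 on every array. The other measured genes of this list, and Aox2, read below those medians. Without a detection call they are not shown to be above background.

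**Figure D4:**
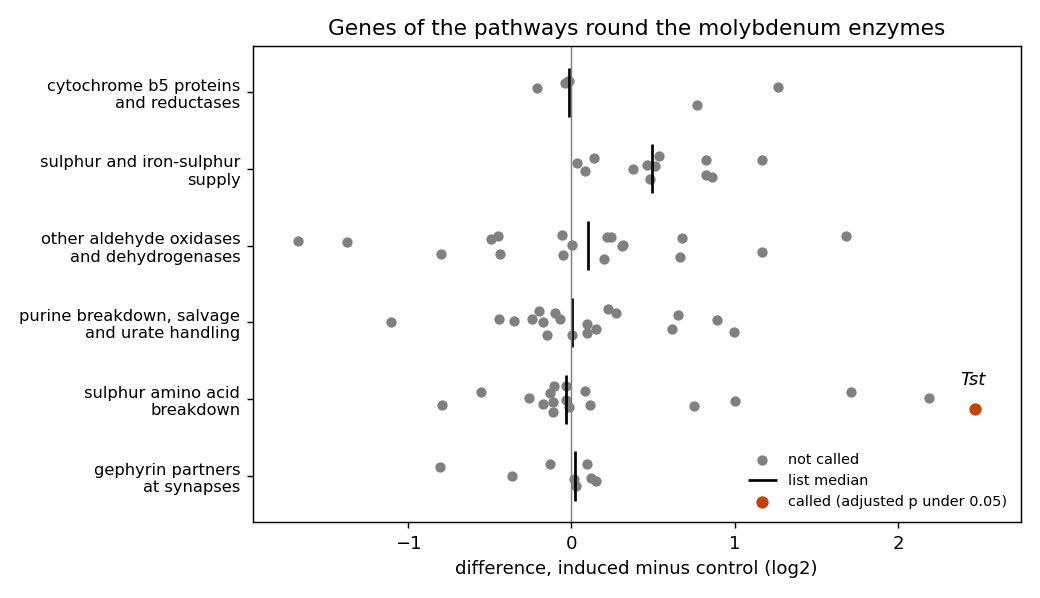
Difference between group means, induced minus control, in log2 units (x axis) for the 81 measured genes of 6 lists by function (y axis, scattered a little up and down for sight); black lines are list medians. Tst, at 2.47, is the 1 called gene (orange), and in the sulphur and iron-sulphur supply list all 12 genes lie above 0.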

How the data were processed

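The deposited values are log2 signals that the authors made with RMA, per the submitters' processing notes of which no version is given here. The log2 scale was inferred from the range of the values. RMA makes no detection call, compresses folds of dim genes and, by quantile normalization, hides a change in total RNA. Precision is limited by the number of arrays, which carry no read depth. Of 36685 features 18511 had 1 gene symbol, 575 several and 17599 none. Names came from the platform annotation, and gene numbers tied 18394 features to RefSeq's GRCr8 table. For each of 18166 genes the feature with the highest mean was kept.

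The test of induced against control arrays was that of limma 3.58.1 (R 4.3.3, functions lmFit and eBayes, two-sided, 4 residual degrees of freedom), with Benjamini-Hochberg adjustment over all genes and calls at an adjusted p under 0.05. The fit was also run on simulated data with independent noise. Those data held no shifts shared by the genes of an array, so they cannot show how such shifts move the calls. An exact permutation test of 3 against 3 arrays cannot go below p = 0.1, so none is given. The labels do not say whether replicate numbers pair the cultures, so the main fit had no block. Deviations from the group means correlated at 0.023, 0.12 and 0.154 for same-numbered arrays 1 to 3. Arrays with unlike numbers correlated between -0.142 and 0.123, so the value for replicate 3 was the highest. These values do not settle whether the cultures were paired.

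The members, the lists and the markers were chosen with earlier results of these data known. Named are all members; from each list the called genes, or else the 2 with the largest difference; the 5 nearest genes to Mtarc1 and to Aox1; and Adipoq, Plin1 and Pparg. Others are said to be outside this rule, apart from marker genes. Alternatives left out each array, blocked on replicate number, weighted arrays, or changed the prior, centring, filter or features.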

Additional observations from a re-analysis of the deposited data

How the results depend on the processing

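All 14 alternatives kept the sign of the difference for each of the 9 genes. For Mtarc1 the difference ran from 3.42 to 4.83 and for Aox1 from 2.82 to 4.27. Calls depended on the arrays. With 1 array left out, 2 (without induced replicate 1) to 557 (without induced replicate 3) genes passed in place of 136. Of the 7 genes taken by function 0 to 1 passed, and of the 81 list genes 0 to 5 in place of 1. With a replicate block 12 genes passed, with 0 of the 7 and 0 of the 81 (Tst at adjusted p = 0.0653). With array weights 929 passed (474 higher, against 87 of 136), with 1 of the 7, Gphn, and 12 of the 81. Without both replicate 3 arrays, chosen after seeing the data, 740 passed, with 3 of the 7 (Xdh, Mocs2 and Gphn) and 9 of the 81. Over single features 69 of 36685 passed. The cause of these shifts was not tested. The other alternatives stayed within 1.5 times of 136. Of the 7, Mtarc2, Suox, Mocs1 and Mocos passed under 0 of the 14 (adjusted p from 0.088 to 0.513).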
